A study of Homo sapiens with 12 samples.

Results

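HS3ST2, TRIM71 and PHACTR3 are 3 genes whose transcripts stood higher in U937 cells carrying an EVI1 vector and lower after all-trans retinoic acid (ATRA). They are 3 of 19775 genes read on Affymetrix 3′ expression arrays, which measure a transcript through a probe set, a group of short probes combined into 1 level. Each gene had exactly 1 probe set annotated to it alone (219697_at for HS3ST2, 231310_at for TRIM71 and 227949_at for PHACTR3), and that probe set is its value. The genes were chosen by their EVI1 and ATRA differences in these same arrays. Those differences are therefore given as a description, with no test.

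U937 is an established human cell line of monocytic character. EVI1, a DNA-binding zinc finger protein, is made from the MECOM locus and acts as an oncogene in myeloid leukaemia. The 4 groups, with 3 arrays each, were cells with the EVI1 expression vector given 1 µM ATRA (EVI1 ATRA), the same cells given the solvent DMSO (EVI1 DMSO), cells with the empty vector given 1 µM ATRA (vector ATRA) and empty-vector cells given DMSO (vector DMSO), all for 24 h. The series calls the replicates biological. The labels do not name the vector's promoter, nor do they say whether each transduced line is a pool or 1 clone, so an effect of EVI1 and another difference between the lines cannot be told apart. In bulk RNA, fewer cells that express a gene and less RNA per cell cannot be told apart either.

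HS3ST2 encodes a heparan sulfate glucosaminyl 3-O-sulfotransferase, which adds a rare sulfate group to the heparan sulfate chains of cell-surface proteoglycans. TRIM71 encodes an RNA-binding ubiquitin ligase of the TRIM-NHL family, the relative of LIN-41 of the nematode, known from embryonic stem cells, where the let-7 microRNAs repress it as cells differentiate. PHACTR3, also called scapinin, encodes a protein that binds actin and the catalytic subunit of protein phosphatase 1. ATRA acts through retinoic acid receptors, nuclear receptors that bind DNA at repeats of a short core site, and drives maturation of some myeloid leukaemia cells.

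The RefSeq gene table for GRCh38.p14 places HS3ST2 on chromosome 16 (22814162 to 22916338), TRIM71 on chromosome 3 (32817997 to 32897824) and PHACTR3 on chromosome 20 (59577509 to 59847711). The RefSeq promoter windows of the same build, 250 bases before to 50 after the start of the gene, are shown for HS3ST2 and TRIM71, the members for which the table used here gives one, because all 3 members differed in the same direction in each comparison. Capitals mark matches to the motifs searched.
HS3ST2 promoter, chr16:22813912-22814211, plus strand: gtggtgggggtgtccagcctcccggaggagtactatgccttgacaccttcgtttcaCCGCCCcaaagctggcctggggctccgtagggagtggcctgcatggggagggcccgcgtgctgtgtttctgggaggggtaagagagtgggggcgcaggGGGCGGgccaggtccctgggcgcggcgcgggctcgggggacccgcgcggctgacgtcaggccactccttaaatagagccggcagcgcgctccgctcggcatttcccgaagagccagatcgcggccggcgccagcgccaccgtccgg
TRIM71 promoter, chr3:32817747-32818046, plus strand: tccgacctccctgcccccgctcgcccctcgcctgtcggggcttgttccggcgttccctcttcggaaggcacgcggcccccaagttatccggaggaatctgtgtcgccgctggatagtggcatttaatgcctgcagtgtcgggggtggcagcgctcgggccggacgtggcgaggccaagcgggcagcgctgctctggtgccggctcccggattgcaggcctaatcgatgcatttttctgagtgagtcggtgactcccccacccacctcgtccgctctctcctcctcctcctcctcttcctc

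Both windows are rich in G and C, at 71.0% for HS3ST2 and 66.0% for TRIM71, against a median of 58.7% over 35116 promoter windows of the same length. HS3ST2 holds 30 CpG dinucleotides and TRIM71 27, against a median of 14. On both strands the windows were searched for the retinoic acid receptor core site AGGTCA (in 13.8% of all windows) and for 2 copies of it in the same direction with any 1, 2 or 5 bases between them (in 0.0228%, 0.0028% and 0.0057%). They were also searched for the EVI1 motifs AGATAA (10.3%), GACAAGATA (0.0968%) and GATGAG (12%), the TATA box TATAAA (11.5%) and the GC box GGGCGG (45.0%). AGATAA and GACAAGATA share letters, and each direct repeat holds the core site. HS3ST2 holds 2 GC boxes, at positions -194 (minus strand) and -96 (plus strand) from the start site. TRIM71 holds none, and none of the other motifs lies in either window, which says only that these letters are not in these 300 bases.

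The 12 arrays had medians of 5.29 to 5.35 and lower quartiles of 3.83 to 3.91 on the log2 scale, and arrays of a group correlated with r from 0.987 to 0.995 over all probe sets. Of 10 myeloid markers, 8 had a probe set and 7 reached a log2 level of 5 on at least 3 arrays. LYZ (12.35 to 13.65), CTSG (11.78 to 13.81) and AZU1 (9.09 to 9.85) read highest. CD4 (7.63 to 8.22), SPI1 (6.07 to 7.11), CSF1R (5.59 to 6.79) and MPO (4.8 to 5.97) read lower, and FCGR1A (3.21 to 3.8) did not reach the level. The 5 MECOM probe sets read 2.61 to 3.6, below the lower quartile of every array, and limma called 0 of them for EVI1 against vector with either agent (1 at an unadjusted p under 0.05). The EVI1 label therefore has no check in these arrays. Along the first principal component of 14080 genes (52.0% of the variance) replicate 3 stood highest in each group, at 53.6 in EVI1 ATRA, 1.83 in EVI1 DMSO, 12.2 in vector ATRA and -15.9 in vector DMSO. The other DMSO arrays lay from -35.3 to -16.4 and the other ATRA arrays from -3.91 to 37.2. The members' differences without replicate 3 are therefore given below as well.

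HS3ST2 showed the largest EVI1 difference of the 3 genes under DMSO and the largest ATRA difference in EVI1 cells. Its log2 levels in replicates 1, 2 and 3 were 6.40, 6.44 and 6.28 in EVI1 ATRA and 8.87, 8.99 and 8.68 in EVI1 DMSO. They were 5.68, 5.31 and 6.06 in vector ATRA and 6.83, 6.78 and 7.14 in vector DMSO. The EVI1 DMSO arrays stand well above all others, and no array of any group overlaps another group. The nearest groups are EVI1 ATRA and vector ATRA, 0.22 apart between their closest arrays.

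For HS3ST2, ATRA minus DMSO was -2.47 ± 0.17 in EVI1 cells (SE of the limma fit, n = 3), a level of 0.180 of that under DMSO. In vector cells it was -1.23 ± 0.17, or 0.425 of the DMSO level. EVI1 minus vector was 0.69 ± 0.17 under ATRA (1.61-fold) and 1.93 ± 0.17 under DMSO (3.81-fold). The EVI1 difference was thus smaller in ATRA-treated cells, and the ATRA difference in EVI1 cells minus that in vector cells, the interaction, was -1.24 ± 0.24. Within replicates 1, 2 and 3 the interaction was -1.32, -1.08 and -1.32. It uses the EVI1 DMSO arrays that helped to choose the gene, so no test of it is read here.

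TRIM71 kept an EVI1 difference of similar size with and without ATRA. Its log2 levels were 6.61, 6.60 and 6.30 in EVI1 ATRA and 8.13, 8.07 and 8.25 in EVI1 DMSO. They were 5.63, 4.61 and 5.10 in vector ATRA and 6.98, 6.63 and 6.89 in vector DMSO. No group overlaps another, but the highest EVI1 ATRA array and the lowest vector DMSO array are only 0.02 apart, and vector ATRA is the most spread, with an SD of 0.51.

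For TRIM71, ATRA minus DMSO was -1.65 ± 0.21 in EVI1 cells (SE, n = 3) and -1.72 ± 0.21 in vector cells, which is 0.319 and 0.304 of the DMSO level. EVI1 minus vector was 1.39 ± 0.21 under ATRA (2.62-fold) and 1.32 ± 0.21 under DMSO (2.49-fold). The interaction was 0.07 ± 0.29, with -0.17, 0.55 and -0.16 within replicates 1, 2 and 3, so its sign differed between replicates. Replicate 2 stands out because the vector ATRA array of that number read 4.61, the lowest TRIM71 value of the 12.

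PHACTR3 had the largest ATRA difference in vector cells and the smallest EVI1 difference under DMSO of the 3 genes. Its log2 levels were 6.86, 6.32 and 6.43 in EVI1 ATRA and 8.63, 8.08 and 8.33 in EVI1 DMSO. They were 5.73, 5.50 and 4.76 in vector ATRA and 7.82, 7.30 and 7.08 in vector DMSO. The groups do not overlap. The nearest are vector DMSO and EVI1 ATRA, 0.22 apart between their closest arrays, followed by EVI1 DMSO and vector DMSO at 0.26. Replicate 1 read highest in every group.

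For PHACTR3, ATRA minus DMSO was -1.81 ± 0.26 in EVI1 cells (SE, n = 3) and -2.07 ± 0.26 in vector cells, or 0.285 and 0.238 of the DMSO level. EVI1 minus vector was 1.21 ± 0.26 under ATRA (2.31-fold) and 0.95 ± 0.26 under DMSO (1.93-fold). With the replicate number as a block in the fit the SE of each of these differences was 0.15 in place of 0.26. The interaction was 0.26 ± 0.37, and 0.32, 0.04 and 0.42 within the replicates.

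**Figure D1:**
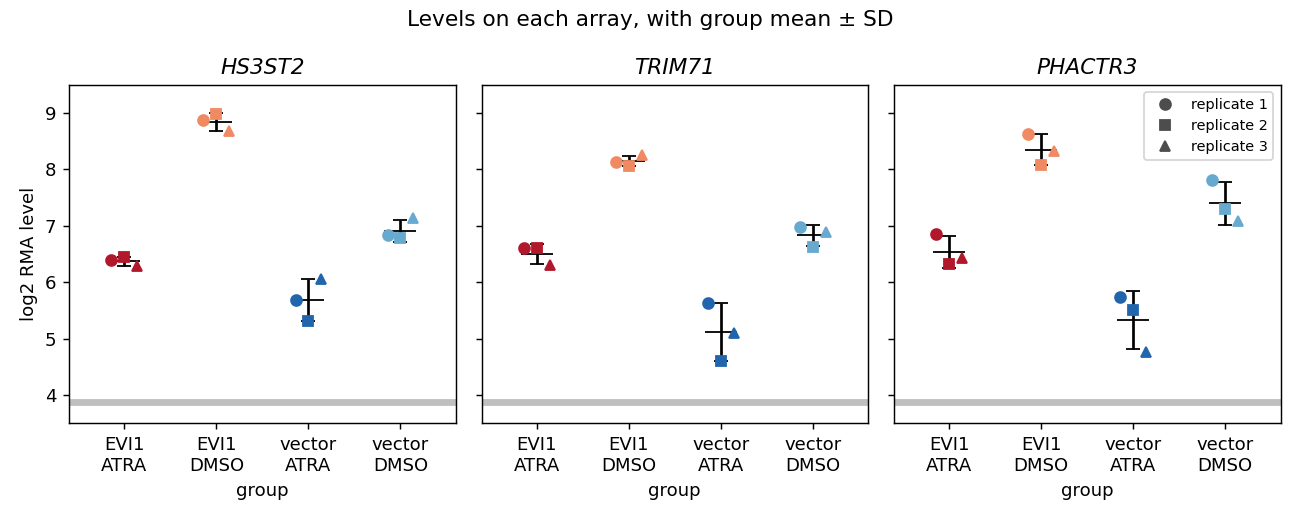
Log2 level (vertical axis) of each gene on the 12 arrays by group, with marker shape for the replicate number, bars for the mean ± SD of 3 arrays, and a grey band for the lower quartiles of the arrays (3.83 to 3.91). EVI1 DMSO is highest and vector ATRA lowest for all 3 genes, and no groups overlap.

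All 3 genes had the same order of group means: EVI1 DMSO, vector DMSO, EVI1 ATRA and vector ATRA, from high to low. EVI1 DMSO averaged 8.85 ± 0.16 for HS3ST2, 8.15 ± 0.09 for TRIM71 and 8.35 ± 0.28 for PHACTR3 (SD, n = 3). The middle neighbours, EVI1 ATRA and vector DMSO, were the closest for TRIM71, at 6.5 ± 0.18 and 6.83 ± 0.18. They were 6.37 ± 0.08 and 6.92 ± 0.20 for HS3ST2, and 6.54 ± 0.29 and 7.40 ± 0.38 for PHACTR3. EVI1 ATRA minus vector DMSO was -0.54 ± 0.17 for HS3ST2, -0.33 ± 0.21 for TRIM71 and -0.86 ± 0.26 for PHACTR3 (SE), so all 3 mean levels in EVI1 cells with ATRA lay below those of vector cells with DMSO. Within the replicates this TRIM71 difference was -0.37, -0.03 and -0.59, and at replicate 2 it is small beside the SD of 0.18 in each group. Vector ATRA was lowest throughout, at 5.68 ± 0.38, 5.11 ± 0.51 and 5.33 ± 0.51, above the lower quartile of the arrays on every array. In this group TRIM71 read 4.61 at replicate 2 and PHACTR3 4.76 at replicate 3, below the log2 level of 5 used as the signal limit. RMA compresses differences near background. Whether it did so for the vector ATRA levels, and for the differences and interactions that use them, was not tested.

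The non-overlap of the 3 members is fixed by how they were chosen, and it is common among the 14080 genes tested. Groups did not overlap, with ATRA below DMSO, for 14.5% of genes in EVI1 cells and for 11.4% in vector cells. With EVI1 above vector this held for 12% of genes under ATRA and 8.23% under DMSO, and with EVI1 ATRA below vector DMSO for 18.1%. In size, PHACTR3 had the lowest ATRA difference of all genes in vector cells and HS3ST2 the second lowest in EVI1 cells. Counted from the highest EVI1 difference under DMSO, HS3ST2 was number 6, TRIM71 number 21 and PHACTR3 number 58. Under ATRA they were numbers 423, 70 and 105, so HS3ST2 moved from first to last of the 3.

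Because the groups of a member did not overlap, its direction had to be the same at each replicate number in each of the 4 comparisons. The sign within replicates therefore adds no support, and only the sizes are described. HS3ST2 under ATRA varied most in relative terms, with EVI1 minus vector of 0.72, 1.13 and 0.22 in replicates 1, 2 and 3, against 2.04, 2.21 and 1.54 under DMSO. The ATRA difference of HS3ST2 in EVI1 cells varied least, at -2.47, -2.55 and -2.40, against -1.15, -1.47 and -1.08 in vector cells. TRIM71 had EVI1 differences of 0.98, 1.99 and 1.2 under ATRA and 1.15, 1.44 and 1.36 under DMSO. PHACTR3 had 1.13, 0.82 and 1.67 under ATRA and 0.81, 0.78 and 1.25 under DMSO.

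Without replicate 3 the ATRA difference in EVI1 cells was -2.51 for HS3ST2, -1.5 for TRIM71 and -1.77 for PHACTR3. In vector cells it was -1.31, -1.69 and -1.95. EVI1 minus vector was then 0.93, 1.49 and 0.98 under ATRA and 2.13, 1.3 and 0.80 under DMSO. The EVI1 difference of HS3ST2 under ATRA moved most in relative terms, to 0.93 without replicate 3, against 0.69 with it.

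**Figure D2:**
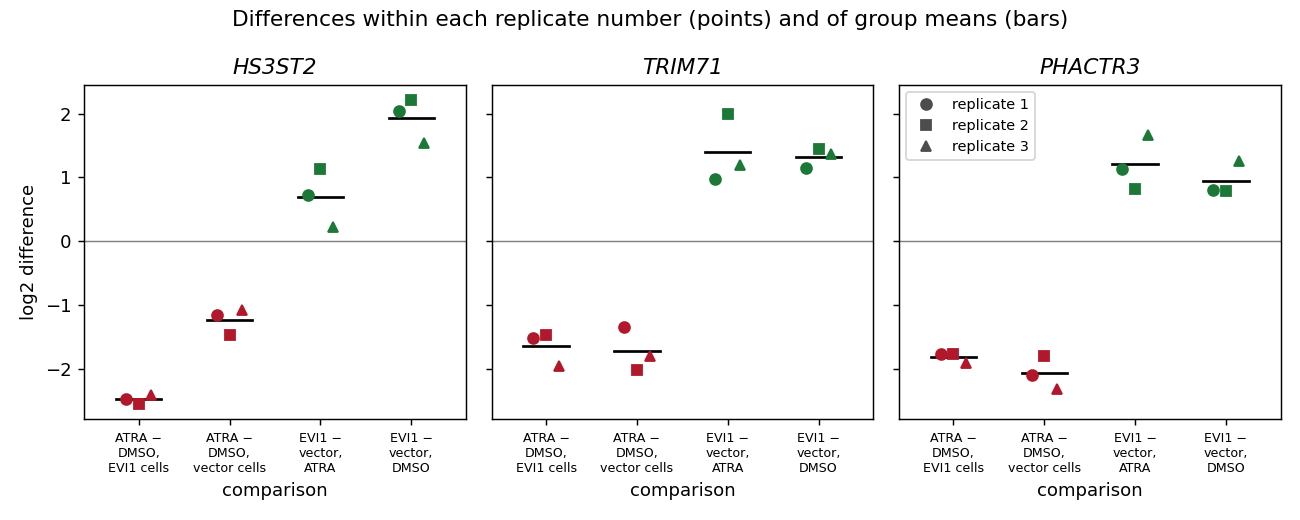
Log2 difference (vertical axis) for the 4 comparisons (horizontal axis) in each gene, with points for the difference within replicates 1, 2 and 3 and bars for the difference of group means. All ATRA points lie below 0 and all EVI1 points above it; the HS3ST2 points under ATRA run from 0.22 to 1.13.

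For the interaction over all genes, the members among them, limma called 0 of 14080 genes (362 at an unadjusted p under 0.05, and 0 called with the replicate block). For the members this count is not read as a test, because the arrays behind it also served to choose them. Their errors are given only to describe the spread. The SE of the interaction was 0.24 for HS3ST2, 0.29 for TRIM71 and 0.37 for PHACTR3, and 0.23, 0.24 and 0.22 with the block. For TRIM71 both errors exceeded the difference of 0.07. For PHACTR3 the difference of 0.26 lay between its 2 errors, and it was above 0 within each replicate.

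None of the tested relatives of the members was called both higher with EVI1 and lower with ATRA. Genes were tested when they reached a log2 level of 5 on at least 3 arrays, and called at a limma adjusted p (Benjamini-Hochberg over 14080 genes) under 0.05. Of the 6 other HS3ST genes, HS3ST1 (5.57 to 6.42) and HS3ST3B1 (5.10 to 5.50) were tested, and their differences in the 4 comparisons lay between -0.11 and 0.27. HS3ST3A1 (2.55 to 2.79), HS3ST4 (3.39 to 3.99), HS3ST5 (4.48 to 5.22) and HS3ST6 (4.80 to 5.15) did not pass the limit. Limma called neither HS3ST1 (lowest adjusted p = 0.643, blocked 0.230) nor HS3ST3B1 (0.584, blocked 0.422).

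Of the TRIM-NHL relatives, TRIM32, a ubiquitin ligase of muscle and brain, fell with ATRA in EVI1 cells by 0.43 (limma adjusted p = 0.0133), and its differences elsewhere were between -0.34 and 0.20. With the replicate block it was called in 2 of the 4 comparisons. TRIM3 (5.60 to 5.92) was not called (lowest adjusted p = 0.594, blocked 0.343) and TRIM2 (3.89 to 4.58) did not pass the limit. LIN28A and LIN28B, the RNA-binding proteins that block let-7 maturation, read 2.52 to 2.85 and 2.78 to 3.22, below the lower quartile of every array.

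Among PHACTR genes, PHACTR2 ran opposite to PHACTR3 under ATRA: it rose by 0.74 ± 0.15 in EVI1 cells (SE, n = 3; limma adjusted p = 0.00904). In vector cells it differed by 0.46 (adjusted p = 0.134, blocked 0.00174), and with the block PHACTR2 was called in 3 of the 4 comparisons. PHACTR1 (-0.02 to 0.07 over the 4 comparisons) and PHACTR4 (-0.10 to 0.11) were not called with or without the block. No difference between a member and its relatives was tested, because the members' differences were known in advance.

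**Figure D3:**
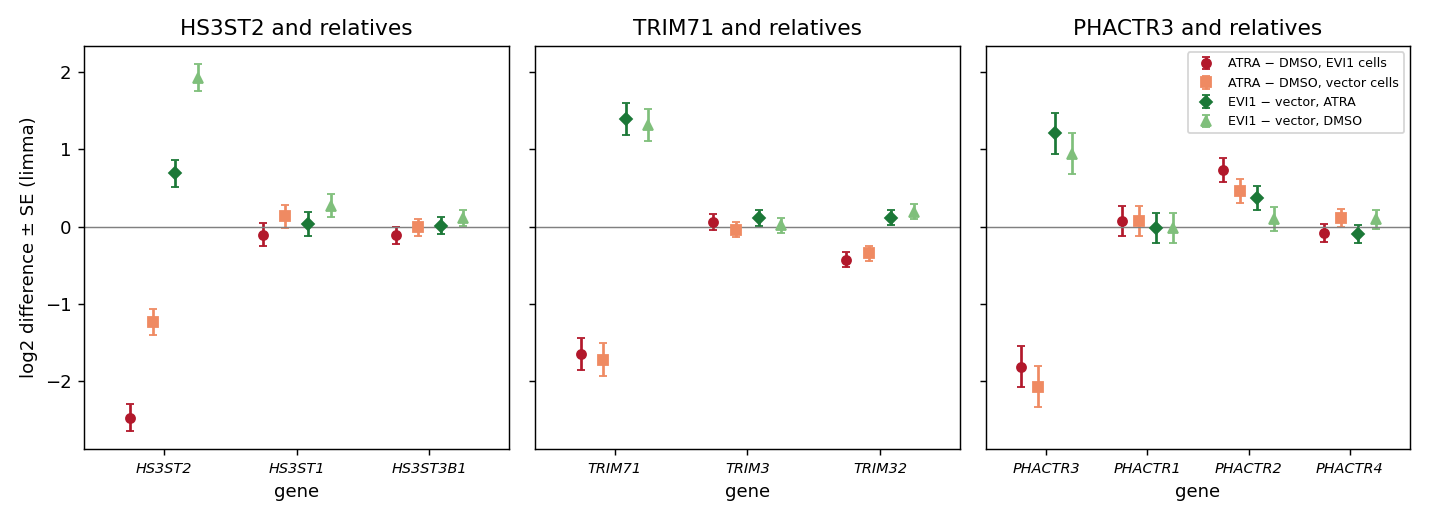
Log2 difference ± SE of the limma fit (vertical axis) for each member and its tested relatives (horizontal axis), with a marker for each of the 4 comparisons. The members reach from -2.47 to 1.93, while the tested relatives lie between -0.43 and 0.74.

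The genes whose levels followed each member most closely over the 12 arrays moved the same way but by less. They were picked for their likeness to members that were themselves chosen by their differences. Neither the shared direction nor the smaller size is therefore read as a result. Likeness was measured as Pearson's r of log2 levels over 12 arrays, a description that mostly reflects the order of the 4 groups, since the arrays fall into those groups. For HS3ST2 the 5 genes with the highest r were ZDHHC9, a palmitoyltransferase (r = 0.975), ETV4, an ETS transcription factor (0.957), SBNO1 (0.956), the prostaglandin receptor PTGER2 (0.955) and HS2ST1 (0.953). HS2ST1 adds 2-O-sulfate to heparan sulfate, and averaged 8.65 ± 0.03 in EVI1 ATRA, 8.94 ± 0.05 in EVI1 DMSO, 8.50 ± 0.08 in vector ATRA and 8.74 ± 0.09 in vector DMSO (SD, n = 3). Its ATRA difference was -0.28 in EVI1 cells (limma adjusted p = 0.0516, blocked 0.00854) and -0.24 in vector cells (0.184, blocked 0.0357). Its EVI1 differences of 0.15 and 0.20 were not called with or without the block.

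TRIM71 was most like PITPNC1, a phosphatidylinositol transfer protein (r = 0.987), followed by MBP (0.963), the transcription factor MEF2D (0.962), the death receptor TNFRSF10B (0.960) and the chondroitin sulfotransferase CHST11 (0.959). CHST11 averaged 9.67 ± 0.15 in EVI1 ATRA, 10.16 ± 0.03 in EVI1 DMSO, 8.98 ± 0.24 in vector ATRA and 9.60 ± 0.08 in vector DMSO (SD, n = 3). PHACTR3 was most like the dual-specificity phosphatase DUSP3 (0.977), the homeobox factor HHEX (0.970), the cytokine signalling inhibitor CISH (0.961), the RAS regulator RASA3 (0.958) and the coagulation initiator F3 (0.957). F3 averaged 6.53 ± 0.09 in EVI1 ATRA, 7.13 ± 0.15 in EVI1 DMSO, 5.91 ± 0.17 in vector ATRA and 6.74 ± 0.14 in vector DMSO. The 3 sets of 5 genes shared 0 genes. Over these 15 genes the absolute log2 differences in the 4 comparisons ran from 0.12 to 0.83, against at least 0.69 for the members.

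**Figure D4:**
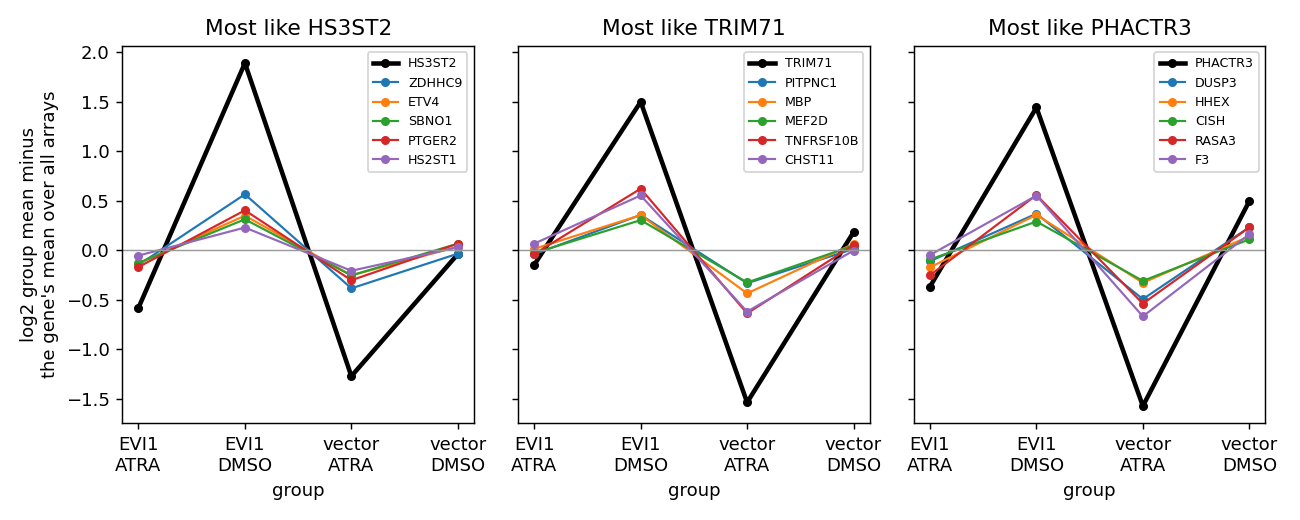
Group means of each member (black) and of the 5 genes most like it, each minus the gene's own mean over all arrays (log2, vertical axis), by group (horizontal axis). The likeness genes follow the zigzag of the members, with EVI1 DMSO highest and vector ATRA lowest, at a smaller size.

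The pathways of the 3 members were followed through 7 gene lists of 147 genes, of which 112 passed the signal limit. Limma called 24 of these with ATRA in EVI1 cells (13 higher, 11 lower), or 21.4% against 15.1% of all genes tested. In vector cells it called 8 (3 higher, 5 lower), 7.14% against 3.52%. Between EVI1 and vector cells it called 11 under ATRA (7 higher, 4 lower), 9.82% against 5.61%, and 2 under DMSO (1 higher, 1 lower), 1.79% against 1.21%. By direction, 7.45% of all genes were called higher and 7.66% lower with ATRA in EVI1 cells, and 2.00% higher and 1.52% lower in vector cells. With EVI1, 3.28% were higher and 2.33% lower under ATRA, and 0.533% higher and 0.682% lower under DMSO.

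With the replicate block the pathway counts were 48 (42.9%), 32 (28.6%), 33 (29.5%) and 7 (6.25%) of 112, against 35.7%, 20.0%, 25.3% and 7.19% of all genes. Of all genes the blocked fit called 16.3% higher and 19.4% lower with ATRA in EVI1 cells, and 9.96% higher and 10.1% lower in vector cells. With EVI1 it called 13.0% higher and 12.3% lower under ATRA, and 4.20% higher and 2.99% lower under DMSO.

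These counts depended on single arrays. The 24 became 14 without EVI1 DMSO replicate 1, 12 without EVI1 ATRA replicate 3, 9 without replicate 3 in all groups and 0 without replicate 2. The 8 became 2 without vector DMSO replicate 1 or 2 or vector ATRA replicate 2 or 3, and 5 without vector DMSO replicate 3 or vector ATRA replicate 1. The 11 became 21 without EVI1 ATRA replicate 1, 7 without vector ATRA replicate 1 or 2, 5 without EVI1 ATRA replicate 2 or vector ATRA replicate 3, and 4 without EVI1 ATRA replicate 3. The 2 became 1 without vector DMSO replicate 1 or 2 or EVI1 DMSO replicate 2 or 3.

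Around HS3ST2, 9.09% of the tested heparan sulfate synthesis genes were called with ATRA in EVI1 cells, against 15.1% of all genes, and 4.55% in vector cells, against 3.52%. Of 34 genes of heparan sulfate synthesis and modification 22 were tested, and HS6ST1 and B3GALT6 fell with ATRA in EVI1 cells while none rose. HS6ST1, a 6-O-sulfotransferase, averaged 7.41 in EVI1 ATRA and 8.46 in EVI1 DMSO, a fall of 1.05 (limma adjusted p = 0.0050). In vector cells HS6ST1 fell by 0.81 (adjusted p = 0.0417), a call kept in 4 of 12 fits that each left out 1 array and lost without any vector array, EVI1 DMSO replicate 2 or EVI1 ATRA replicate 3. Its EVI1 differences were below 0, with EVI1 minus vector of -0.48 under ATRA (adjusted p = 0.176, blocked 0.00719) and -0.24 under DMSO (0.836, blocked 0.198). B3GALT6, which builds the linker between chain and core protein, fell by 0.60 with ATRA in EVI1 cells (adjusted p = 0.00336) and by 0.55 in EVI1 against vector cells under ATRA (0.0108, lost without EVI1 ATRA replicate 3). The list median was -0.10 with ATRA in EVI1 cells, against -0.02 over all genes. With the block 2 rose and 6 fell there (36.4% against 35.7% of all genes), and 1 rose and 3 fell in vector cells (18.2% against 20.0%).

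Of 16 core proteins and other carriers of heparan sulfate 12 were tested, and 8.33% were called with ATRA in EVI1 cells, against 15.1% of all genes. NRP1, a co-receptor of semaphorins and vascular growth factors, rose by 0.61 with ATRA in EVI1 cells (limma adjusted p = 0.0375), a call kept in 4 of the 12 fits. It was lost without vector DMSO replicate 1, 2 or 3, vector ATRA replicate 2, EVI1 DMSO replicate 1 or 3, or EVI1 ATRA replicate 2 or 3. The list had 0 other calls in the 4 comparisons. The syndecan SDC4 differed by -0.32 in EVI1 cells and -0.36 in vector cells under ATRA, with adjusted p of 0.179 and 0.239 (blocked 0.0189 and 0.0222). With the block 1 rose and 2 fell in EVI1 cells (25% against 35.7% of all genes), and 1 fell in vector cells (8.33% against 20.0%).

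Around TRIM71, the Argonaute genes went different ways with ATRA. let-7 acts through Argonaute proteins. Its mature sequence, from RefSeq (GRCh38.p14), is shown with the seed (bases 2 to 8) in capitals, because let-7 target genes are followed below. All 8 let-7 names in that source share this seed. The target genes were taken as a list of names, and their transcripts were not searched for the seed. The arrays did not measure mature microRNAs.
hsa-let-7a-5p: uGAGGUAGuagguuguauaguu

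Of 23 genes of the TRIM-NHL and LIN28 to let-7 pathway 18 were tested, and with ATRA in EVI1 cells 4 rose and 4 fell. This was 44.4% against 15.1% of all genes, and in vector cells 16.7% were called, against 3.52%. With EVI1, 11.1% were called under ATRA and 5.56% under DMSO, against 5.61% and 1.21% of all genes. AGO1 averaged 10.71 in EVI1 ATRA and 8.92 in EVI1 DMSO, and 10.58 in vector ATRA and 8.81 in vector DMSO. It rose by 1.79 in EVI1 cells and 1.78 in vector cells (limma adjusted p = 0.00428 and 0.0141). AGO4 rose by 1.21 and 1.35 (adjusted p = 0.00895 and 0.0169). The AGO1 and AGO4 calls in vector cells were lost without vector DMSO replicate 1 or 2 or vector ATRA replicate 2 or 3. AGO3 rose by 0.53 with ATRA in EVI1 cells (adjusted p = 0.0343, blocked 0.00114). In vector cells AGO3 differed by 0.40 (0.183, blocked 0.0115).

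AGO2, the Argonaute that cleaves its target RNA, and the cell cycle inhibitor CDKN1A were called in each of the 4 comparisons. Without the block they were the only such genes of the 112. With it PPP1R18, of the phosphatase 1 list, was also called in each. AGO2 averaged 6.07 in EVI1 ATRA, 7.03 in EVI1 DMSO, 6.80 in vector ATRA and 7.67 in vector DMSO. It fell by 0.96 with ATRA in EVI1 cells and by 0.87 in vector cells (limma adjusted p = 0.000305 and 0.00134). Unlike TRIM71 it was also lower with EVI1, by 0.73 under ATRA and 0.64 under DMSO (adjusted p = 0.00122 and 0.00419). Each of these 4 calls was kept in all 12 fits without 1 array. Of the 3 fits without a replicate number, the ATRA calls were kept in 2 in each cell kind and the EVI1 calls in 1 under each agent. TUT7, an uridylyltransferase that acts on let-7 precursors, rose by 0.71 with ATRA in EVI1 cells (adjusted p = 0.00629) and by 0.59 with EVI1 under ATRA (0.0282, lost without any vector ATRA array or EVI1 ATRA replicate 2 or 3). With the block 6 rose and 7 fell in EVI1 cells (72.2% against 35.7% of all genes), and 5 rose and 5 fell in vector cells (55.6% against 20.0%).

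Of 26 let-7 target genes 20 were tested, with 1 rise and 4 falls under ATRA in EVI1 cells, 25% against 15.1% of all genes. In vector cells 10% were called, against 3.52%, and with EVI1 under ATRA 10%, against 5.61%. With ATRA the transcription factor MYC differed by -1.80 in EVI1 cells and -0.86 in vector cells (limma adjusted p = 0.000465 and 0.0286), and the cell cycle factor E2F5 by -1.31 and -1.06 (0.000146 and 0.00112). E2F5 kept both calls in all 12 fits, and MYC lost its call in vector cells without any 1 of the 6 vector arrays. The insulin receptor INSR (-0.70) and TGFBR1 (-0.66) also fell in EVI1 cells (0.0161 and 0.0298). INSR lost its call without EVI1 ATRA replicate 2 or EVI1 DMSO replicate 3, and TGFBR1 without EVI1 DMSO replicate 1 or 2 or EVI1 ATRA replicate 1 or 3. Between EVI1 and vector cells under ATRA, MYC (-0.86) and the cyclin CCND2 (-0.58) were lower (0.0203 and 0.031), and under DMSO limma called 0 let-7 targets (1 with the block). The MYC call was lost there without vector ATRA replicate 1 or 3 or EVI1 ATRA replicate 2, and the CCND2 call without any vector ATRA array or EVI1 ATRA replicate 2 or 3. The list median with ATRA was -0.21 in EVI1 cells and -0.21 in vector cells, against -0.02 and 0.00 over all genes. With the block 1 rose and 10 fell in EVI1 cells (55% against 35.7% of all genes), and 1 rose and 7 fell in vector cells (40% against 20.0%).

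Of 6 mRNAs that TRIM71 represses in embryonic stem cells or other lines 5 were tested, and CDKN1A and EGR1 rose. Limma called 40% of the 5 with ATRA in EVI1 cells and 20% in vector cells, against 15.1% and 3.52% of all genes. With EVI1 it called 40% under ATRA and 20% under DMSO, against 5.61% and 1.21%. With the block the ATRA shares were 40% in EVI1 cells and 20% in vector cells, against 35.7% and 20.0% of all genes. The blocked EVI1 shares were 60% under ATRA and 40% under DMSO, against 25.3% and 7.19%. CDKN1A averaged 10.64 in EVI1 ATRA, 9.15 in EVI1 DMSO, 9.08 in vector ATRA and 7.85 in vector DMSO. It rose by 1.49 and 1.23 with ATRA in EVI1 and vector cells, and by 1.56 and 1.3 with EVI1 under ATRA and DMSO (limma adjusted p = 0.00262, 0.0192, 0.00447 and 0.02). CDKN1A was thus higher with EVI1, as TRIM71 was, and higher with ATRA, where TRIM71 was lower. The immediate early factor EGR1 rose by 2.39 with ATRA in EVI1 cells and by 2.88 with EVI1 under ATRA (adjusted p = 0.0175 and 0.0153). EGR1 differed by 1.17 with EVI1 under DMSO (adjusted p = 0.561, blocked 0.0161). RBL1, RBL2 and MBNL1 were not called, though with the block RBL1 was lower with EVI1 under ATRA, with a log2 difference of -0.42 (blocked adjusted p = 0.0449). CDKN1A lost its call in vector cells without vector DMSO replicate 1 or 2 or vector ATRA replicate 2 or 3, and under DMSO without vector DMSO replicate 1 or 2 or EVI1 DMSO replicate 2 or 3. EGR1 lost its ATRA call without EVI1 DMSO replicate 1 or 2 or EVI1 ATRA replicate 3, and its EVI1 call without vector ATRA replicate 1 or EVI1 ATRA replicate 3.

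Around PHACTR3, 19 of 22 phosphatase 1 and PHACTR genes were tested. With ATRA in EVI1 cells 4 rose and 1 fell, 26.3% against 15.1% of all genes, while the other 14 were not called. The 5 calls became 1 without EVI1 ATRA replicate 3 and 0 without replicate 2 in all groups. Beside PHACTR2 these were PPP1R18, which binds phosphatase 1 and actin (0.73, limma adjusted p = 0.0104), PPP1R3D (0.63, 0.0292) and PPP1R11 (0.46, 0.0476), and the catalytic subunit PPP1CC fell by 0.33. PPP1R11 kept its call only without vector DMSO replicate 2 or vector ATRA replicate 1. PPP1R18 lost its call without EVI1 ATRA replicate 3, and PPP1R3D without EVI1 DMSO replicate 1 or 2 or EVI1 ATRA replicate 2 or 3. In vector cells limma called 0 of the 19 (PPP1R18 differed by 0.56, adjusted p = 0.078, blocked 0.0123). With the block 4 rose and 1 fell there, 26.3% against 20.0% of all genes. In EVI1 cells the blocked fit called 6 higher and 1 lower with ATRA, 36.8% against 35.7% of all genes. PPP1R18 and PPP1R2 were higher with EVI1 under ATRA, by 0.68 and 0.54 (adjusted p = 0.0278 and 0.0241), or 10.5% of the 19 against 5.61% of all genes. Both of these calls were lost without vector ATRA replicate 2 or 3 or EVI1 ATRA replicate 2 or 3, and the PPP1R2 call also without vector ATRA replicate 1.

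Of 20 actin genes and targets of the actin-regulated factors MRTF and SRF 16 were tested. Limma called 6.25% with ATRA in EVI1 cells and 6.25% in vector cells, against 15.1% and 3.52% of all genes. It called 12.5% with EVI1 under ATRA, against 5.61%. With the block these shares were 25%, 18.8% and 31.3%, against 35.7%, 20.0% and 25.3% of all genes. Tropomyosin TPM1 fell by 0.42 with ATRA in vector cells (limma adjusted p = 0.038) and was higher by 0.54 with EVI1 under ATRA (0.00934). The focal adhesion gene VCL rose by 0.34 with ATRA in EVI1 cells (0.0464) and by 0.49 with EVI1 under ATRA (0.0203). The ATRA call of VCL was kept only without vector ATRA replicate 1 or 3 or EVI1 ATRA replicate 1, and its EVI1 call was lost without EVI1 ATRA replicate 2 or 3 or vector ATRA replicate 3. The ATRA call of TPM1 was lost without any vector array or EVI1 DMSO replicate 2. ACTB was not called with or without the block. SRF differed with ATRA by -0.39 in EVI1 cells and -0.36 in vector cells, with adjusted p of 0.177 and 0.34 (blocked 0.00121 and 0.00476).

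**Figure D5:**
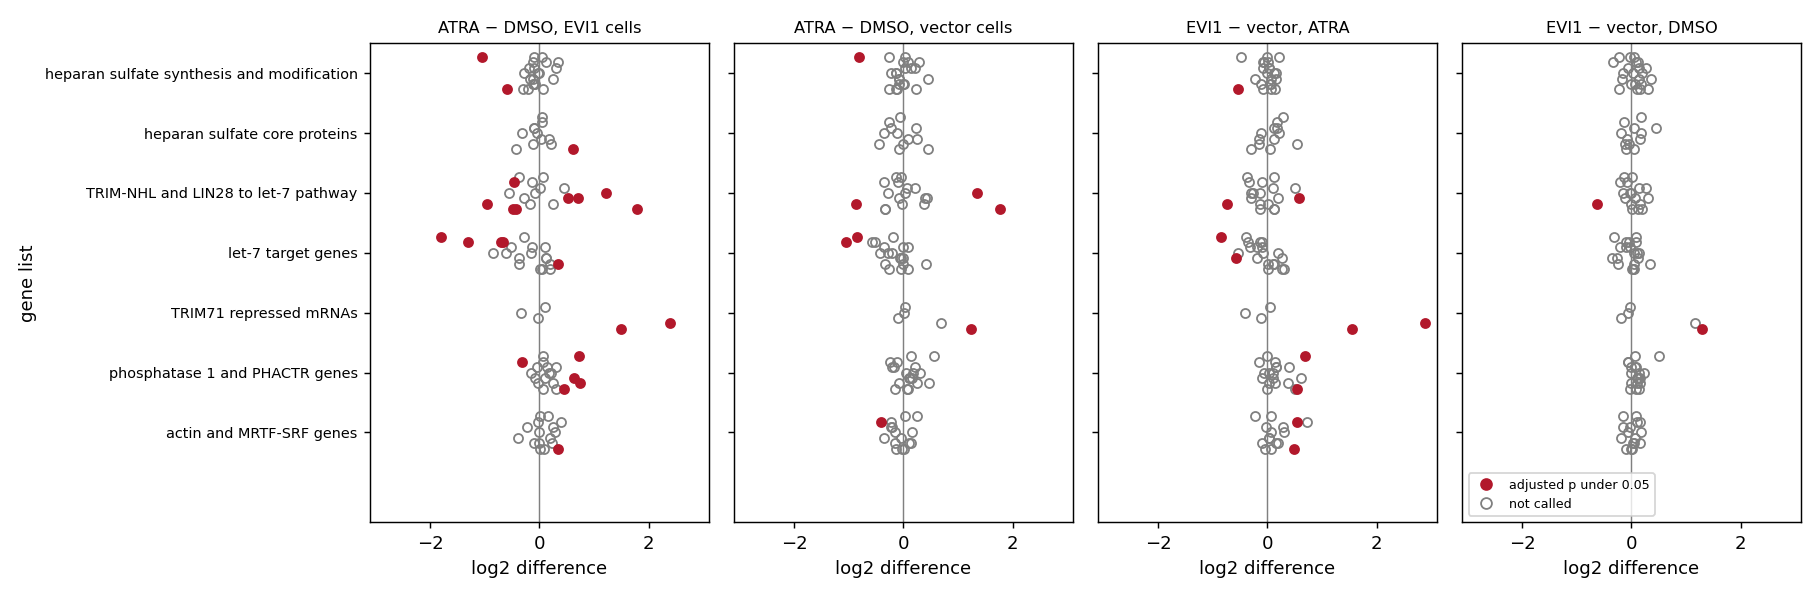
Log2 differences (horizontal axis) of the 112 tested pathway genes in the 4 comparisons (panels), by gene list (rows), with filled points for genes called by limma at an adjusted p under 0.05. EVI1 against vector under DMSO holds only 2 filled points, CDKN1A and AGO2.

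Markers of tissues in which the members are otherwise known were examined because TRIM71 belongs to embryonic stem cells and PHACTR3 and HS3ST2 to brain. Of 7 embryonic stem markers 5 had a probe set and 2 reached the signal limit, NANOG (4.66 to 5.23) and SOX2 (5.32 to 5.95). Of 8 neuronal markers 5 reached it, none above 7. Limma called 0 markers of either list in the 4 comparisons (0 also for the interaction). The mean level of the list on an array was 3.97 to 4.27 for embryonic stem and 5.08 to 5.37 for neuronal markers. Calls among other marker lists fell in the comparisons of ATRA in EVI1 cells and of EVI1 under ATRA. From the myeloid list, CSF1R (0.62, limma adjusted p = 0.0324) and CTSG (-0.91, 0.0103) were called with ATRA in EVI1 cells. CD79B (0.55, 0.0184) of the B cell list and PECAM1 (1.1, 0.00536) of the fibroblast and endothelial list were also called there. PECAM1 read 10.4 to 12.38 over the 12 arrays. With EVI1 under ATRA, CTSG differed by -0.89 (0.0222), CD79B by 0.77 (0.00888) and PECAM1 by 1.00 (0.0167). The part of any of these markers in the members' levels was not tested.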

How the data were processed

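Total RNA of U937 cells (250 ng per sample, per the labels' protocols) was hybridised to Affymetrix 3′ arrays. The deposited values are log2 levels per probe set, which the authors made with RMA. The submitters' processing notes name Expression Console 1.3. Settings are not given in the sources used here. RMA compresses differences near background and gives no counts, and precision is limited by having 3 arrays a group.

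Of 54675 probe sets, 41097 had 1 gene symbol, 1801 several and 11777 none. Entrez identifiers of 41043 matched the RefSeq table (GRCh38.p14), used for names. Where a gene had several probe sets, the one of highest mean stood for it. Genes needed a log2 level of at least 5 on at least 3 arrays (14080 of 19775), which the 3 members passed. With limma 3.58.1 (R 4.3.3) 1 model of the 4 group means took in all 12 arrays, p-values were adjusted by Benjamini-Hochberg over all tested genes, and the code was tested on simulated data. The p-values set a difference against the spread between these samples, and do not cover variation between separately transduced lines.

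The members and gene lists were chosen with earlier results of these data known. Named genes were the members, their relatives, the 5 genes most like each, and up to 4 called genes per list and comparison with the largest difference. ACTB, SRF, SDC4, AGO3, PPP1CC, LYZ, CTSG, AZU1, CD4, SPI1, CSF1R, MPO, FCGR1A, CD79B, PECAM1, NANOG, SOX2, RBL1, RBL2 and MBNL1 were named after their values were seen. Same-numbered arrays deviated together from their group means (r from 0.408 to 0.704 in 18 pairs), so the replicate number pairs the samples and a fit with it as a block was run. Calls, adjusted p and SEs are from the fit without the block unless the block is named. That fit leaves the pairing out, so a gene not called in it may be called with the block. Other alternatives were other filters, quantile or median scaling, the mean of a gene's probe sets, limma's trend, and leaving out arrays.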

Additional observations from a re-analysis of the deposited data

How the results depend on the processing

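The direction of the members' differences is fixed by how they were chosen, the block leaves the differences as they are, and each member has only 1 probe set, so their signs under the alternatives show nothing about stability. Leaving out arrays moved 2 differences by more than the spread between replicates: EVI1 minus vector under ATRA became 0.93 for HS3ST2 without replicate 3 and 1.09 for TRIM71 without replicate 2. With arrays left out, ranges in the order ATRA in EVI1 cells, ATRA in vector cells, EVI1 under ATRA and EVI1 under DMSO were -2.56 to -2.40, -1.42 to -1.05, 0.47 to 0.93 and 1.79 to 2.13 for HS3ST2. They were -1.74 to -1.5, -1.98 to -1.47, 1.09 to 1.65 and 1.22 to 1.40 for TRIM71, and -1.97 to -1.67, -2.27 to -1.79, 0.92 to 1.41 and 0.79 to 1.16 for PHACTR3. The interaction ranged from -1.43 to -1.05 for HS3ST2, -0.18 to 0.33 for TRIM71 and -0.03 to 0.46 for PHACTR3.

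Counts of called genes depended on the pairing. With the replicate block 5023 genes were called with ATRA in EVI1 cells, 2818 with ATRA in vector cells, 3559 with EVI1 under ATRA and 1013 with EVI1 under DMSO, in place of 2127, 496, 790 and 171; among the pathway genes the blocked counts were 48, 32, 33 and 7. With arrays left out the counts ranged from 5 to 3229, 0 to 633, 15 to 1957, 12 to 190 and, for the interaction, 0 to 1, the low ends of the first 4 without replicate 2 in all groups and the high ends without EVI1 ATRA replicate 1. For the pathway genes they ranged from 0 to 29, 0 to 8, 0 to 21 and 0 to 2. With the mean of all probe sets of a gene, 6 in place of 11 pathway genes were called with EVI1 under ATRA. The cause of these changes was not tested.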
